A study of Mus musculus with 2 samples.

Results

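CC chemokines are small secreted proteins that attract leukocytes, and 10 of their genes (Ccl2, Ccl5, Ccl7, Ccl8, Ccl11, Ccl12, Ccl17, Ccl20, Ccl21a and Ccl22) were followed here in single-cell RNA sequencing of the mouse uterus. They were taken by gene symbol, which matched 11 of 32285 listed gene rows because Ccl21a stands on more than 1 row. The data are 2 libraries of dissociated whole uterus from females aged 6 months. The control library was made from mice with floxed Prickle1 alleles (Prickle1 f/f), and the conditional knockout (cKO) library from mice that carried the same alleles with a Cre recombinase driven by Ltf (Prickle1 f/f Ltf-cre). Each library pooled 3 mice. Prickle1 is a gene of planar cell polarity. Ltf encodes lactotransferrin, a secreted product of the uterine epithelium, and the Cre was made to delete floxed alleles there in the adult. Ltf is also known from granulocytes, and recombination in other cells was not measured. Another entry of the labels gives both samples a wild-type C57BL/6J genotype, which differs from the titles. The names control and cKO follow the titles.

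The members act through different receptors. Ccl2, Ccl7, Ccl8 and Ccl12 belong to the monocyte chemoattractant group, of which Ccl2 and Ccl7 draw monocytes out of the marrow and blood through Ccr2. Ccl11 (eotaxin) attracts eosinophils through Ccr3, Ccl5 (RANTES) attracts T cells, NK cells and monocytes through receptors that include Ccr1 and Ccr3, Ccl17 and Ccl22 attract Ccr4-bearing T cells, Ccl20 attracts Ccr6-bearing cells, and Ccl21a guides Ccr7-bearing dendritic and T cells into lymphatic vessels and lymph nodes. In the uterus these ligands are known for the recruitment of macrophages, eosinophils, dendritic cells and lymphocytes through the cycle and pregnancy.

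Barcodes with 500 or more genes and no more than 20% mitochondrial UMIs (unique molecular identifiers) counted as cells, which left 3653 control and 4950 cKO cells, 8603 in all, with 5 barcodes in common. They held 83.7% of 45035801 UMIs in control and 92.6% of 57145553 UMIs in cKO, with medians of 4650 and 5944 UMIs per cell. A cell entered a class by at least 1 UMI of a gate gene: Epcam for epithelial, Pdgfra for stromal, C1qa for macrophage, Flt3 or Ccr7 for dendritic, Cd3e or Ncr1 for lymphoid and Prox1 for lymphatic. Cells with gates of several classes (164 and 220) were set aside as mixed, and 1357 and 2278 cells had no gate gene. The classes held, in control and cKO, 961 and 135 epithelial, 630 and 1494 stromal, 241 and 114 macrophage, 141 and 239 dendritic, 141 and 420 lymphoid, and 18 and 50 lymphatic cells. Epithelial cells held 45.1% of all cell UMIs in control and 7.25% in cKO, and stromal cells 21.9% and 49.4%. Markers that the gates did not use were highest in their own class for all 6 epithelial, 6 stromal, 6 macrophage and 7 lymphoid markers in both libraries. Exceptions were Itgax (both libraries) and H2-Aa (cKO) for the dendritic gate, and Pdpn (both libraries) for the lymphatic gate. The cKO epithelial gate was less pure: 40 of its 135 cells carried Ptprc, the leukocyte marker CD45, and its stromal markers summed to 3447 counts per 1000000 (CPM) against 282 in control. Prickle1 had 100 UMIs in control and 436 in cKO over all cells (2.65 and 8.24 CPM), a count of transcript 3' ends that does not check whether an exon was removed. Ltf itself was at 774 CPM in the control library and 11.3 CPM in the cKO library.

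Levels below are CPM of the class or library total. With 1 library per group no test between genotypes is possible: brackets hold exact 95% intervals that cover counting error only, and an effect of genotype cannot be told apart from that of the animals, the dissociation or the library. A member was counted as higher or lower in cKO at a ratio of at least 2 in either direction, with at least 10 UMIs over both libraries, and the share of all genes past the same limit is given as background.

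Several members are neighbours in the genome. Ccl2, Ccl7, Ccl11, Ccl12 and Ccl8 follow each other within 81.2 kb of chromosome 11 (82035571 to 82116799 in GRCm38), Ccl5 lies farther along the same chromosome, and Ccl22 and Ccl17 lie within 66.4 kb of chromosome 8. In the comparison of longest coding transcripts, with gaps counted as differences, Ccl12 and Ccl8 were 62.3% identical and Ccl2 and Ccl7 55.2%. Whether the counting split reads between such pairs was not tested. The start regions of members are printed for pairs of genes that led in the same class and differed in the same direction within it, Ccl8 with Ccl12 and Ccl22 with Ccl17. The chromosome 11 group as a whole did not: over all cells Ccl2 and Ccl11 were higher in cKO (log2 ratios of 1.24 and 2.79, the second 1.69 with cells thinned to 1000 UMIs and 1.48 as a mean of the cells' own CPM), and Ccl8 and Ccl12 were lower (-1.69 and -2.62). The printed regions are the bases before the transcription start in RefSeq (GRCm38.p6), and the set of start regions used here held 6 of the 10 members. They are written 5′ to 3′ on the gene's strand and cut where the annotated transcript begins. Capitals mark a match to 1 of 4 motifs searched on both strands: NF-kappaB (GGG, any 2 bases, TTTCC), the interferon-response element (GAAA, any 2 bases, GAAA), AP-1 (TGANTCA) and the TATA box (TATAAA). These were found in 1.41%, 2.98%, 6.75% and 12.4% of 32851 RefSeq windows of 250 bases.

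Macrophage chemokines of the chromosome 11 group, shown as the 2 that were lower in cKO:
Ccl8, chr11:82114935-82115184, plus strand: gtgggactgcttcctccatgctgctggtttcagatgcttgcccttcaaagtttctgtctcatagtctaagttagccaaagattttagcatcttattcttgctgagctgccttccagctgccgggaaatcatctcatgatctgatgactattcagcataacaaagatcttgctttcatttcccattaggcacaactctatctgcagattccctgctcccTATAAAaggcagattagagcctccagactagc
Ccl12, chr11:82101595-82101844, plus strand: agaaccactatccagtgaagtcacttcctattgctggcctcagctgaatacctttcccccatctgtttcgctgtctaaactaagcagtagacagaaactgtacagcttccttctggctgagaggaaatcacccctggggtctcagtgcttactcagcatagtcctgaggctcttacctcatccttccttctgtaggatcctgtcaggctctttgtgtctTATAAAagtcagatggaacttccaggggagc
Dendritic chemokines of the chromosome 8 pair, shown as the neighbours that were higher in cKO:
Ccl22, chr8:94745434-94745589, plus strand: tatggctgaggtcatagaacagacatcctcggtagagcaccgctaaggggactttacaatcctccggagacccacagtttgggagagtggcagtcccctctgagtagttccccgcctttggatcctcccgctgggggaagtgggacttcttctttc
Ccl17, chr8:94810203-94810452, plus strand: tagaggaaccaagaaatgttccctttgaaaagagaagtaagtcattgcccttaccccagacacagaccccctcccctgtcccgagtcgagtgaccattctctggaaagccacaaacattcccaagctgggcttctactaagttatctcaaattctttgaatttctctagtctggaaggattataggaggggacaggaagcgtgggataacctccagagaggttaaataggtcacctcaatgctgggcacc
The epithelial-gated and the lymphatic chemokine, shown for comparison with these pairs:
Ccl20, chr1:83116516-83116765, plus strand: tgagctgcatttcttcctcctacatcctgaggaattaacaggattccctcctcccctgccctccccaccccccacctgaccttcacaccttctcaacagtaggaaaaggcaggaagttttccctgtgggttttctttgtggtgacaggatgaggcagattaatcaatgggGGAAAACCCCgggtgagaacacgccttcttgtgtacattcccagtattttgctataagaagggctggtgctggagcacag
Ccl21a, chr4:42773994-42774241, minus strand: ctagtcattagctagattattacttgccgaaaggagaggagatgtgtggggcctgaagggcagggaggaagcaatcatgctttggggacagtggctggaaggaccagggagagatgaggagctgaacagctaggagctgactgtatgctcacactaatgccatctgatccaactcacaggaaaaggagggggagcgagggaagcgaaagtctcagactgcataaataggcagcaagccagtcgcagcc

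Both Ccl8 and Ccl12 held TATAAA close to the start, 32 bases before it in Ccl8 and 31 in Ccl12. Their windows were 54.5% identical, above the next pair among these 6 genes at 49.0%. Ccl20 had the only NF-kappaB match, 80 bases before its start. No match to any of the 4 motifs was found in the Ccl17, Ccl22 and Ccl21a windows, which says only that these letters were not there. A match is a description of the sequence and not of a bound site.

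The members fell into cell sources that mostly held in both libraries. Of the 10 members, 6 had the same leading class (the gated class with the highest CPM among classes of at least 20 cells) in control and cKO: macrophage for Ccl7, Ccl8 and Ccl12, stromal for Ccl11, and dendritic for Ccl17 and Ccl22. Ccl2 led in stromal cells in control (2122 CPM, macrophage 1542) and in macrophages in cKO (2758, stromal 2390). Ccl5 led in dendritic cells in control (1280) and in macrophages in cKO (443, dendritic 364). Neither change of source held without the top cell of each class and library: Ccl2 then led in stromal cells in cKO (2354 CPM, macrophage 2234), and Ccl5 in dendritic cells (328 CPM, macrophage 249). Ccl20 had only 6 UMIs in control and was not ranked there. Ccl21a was a lymphatic transcript in both libraries, but the control lymphatic class had 18 cells and fell under the minimum, so it counts as differing by that limit alone.

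**Figure D1:**
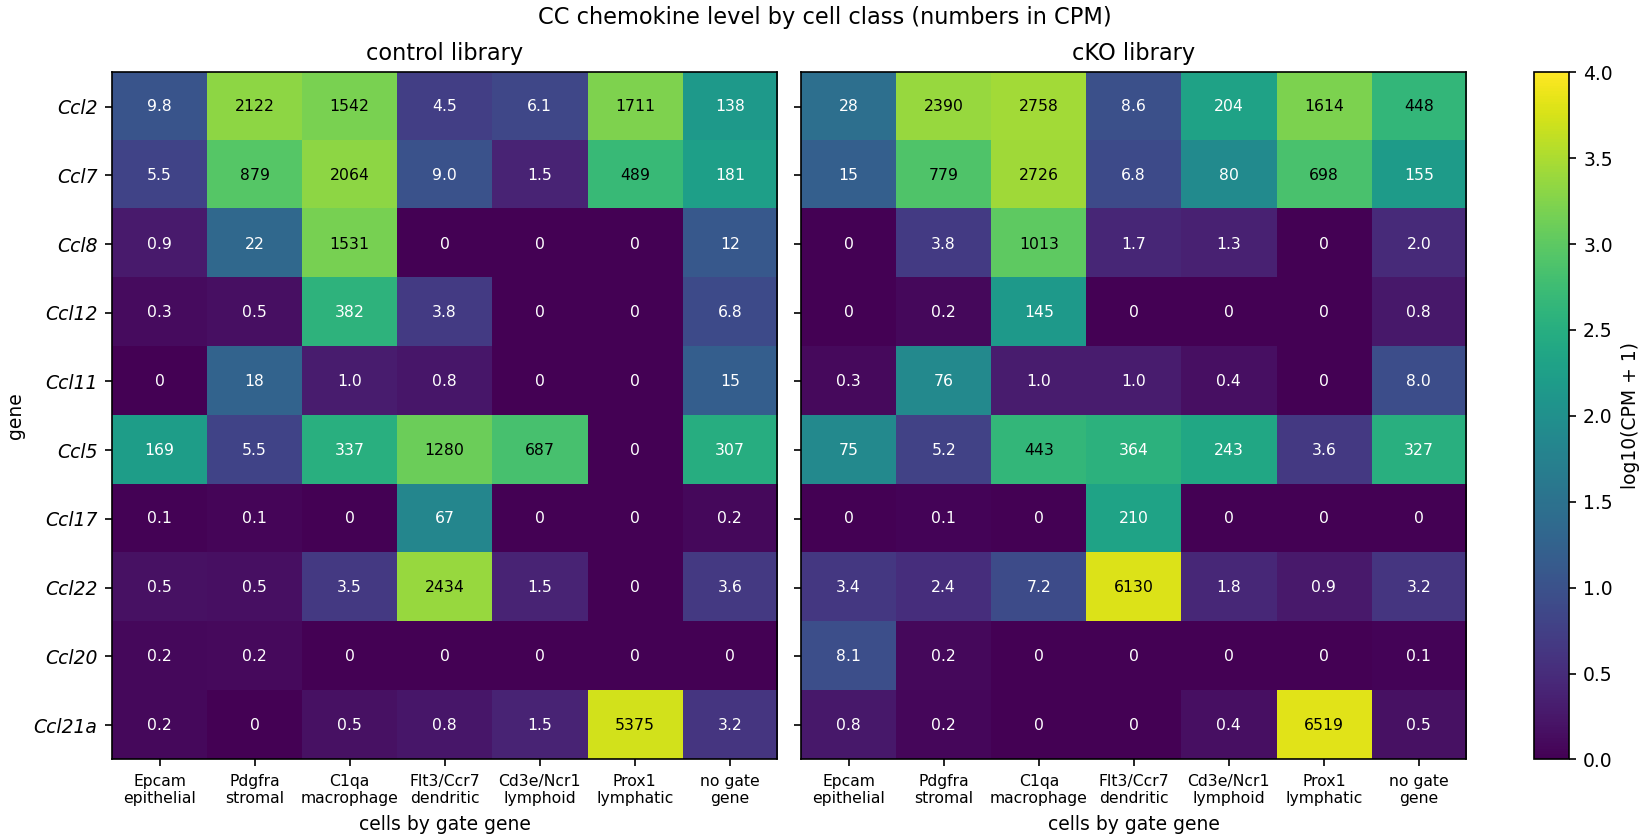
CC chemokine level in CPM (printed numbers, colour as log10(CPM + 1)) for 10 genes in rows and 6 gated classes and cells with no gate gene in columns, control library at left and cKO library at right. Ccl17 and Ccl22 stand almost only in the dendritic column, Ccl8 and Ccl12 almost only in the macrophage column, and Ccl2 and Ccl7 are spread over stromal, macrophage and lymphatic cells.

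Over all cells, 6 members were at least 2-fold higher in cKO (Ccl2, Ccl11, Ccl17, Ccl20, Ccl21a and Ccl22), against 14.1% of 18404 genes, and 2 were at least 2-fold lower (Ccl8 and Ccl12), against 13.5%. The median member log2 ratio was 1.14, beside 0.25 over all genes. The epithelial share of the libraries moved with these ratios. Without the Epcam-gated cells, 3 members were higher (Ccl11, Ccl20 and Ccl22), against 6.28% of 17671 genes, and the same 2 lower, against 11.9%. The median member ratio was then 0.39 on the log2 scale, beside 0.05 over all genes. Mixed cells stayed in, and 1 of them in cKO, with 23 Epcam UMIs, held 25 Ccl20 UMIs. Without that cell Ccl20 would be under the minimum of UMIs. Ccl2 went from 647 to 1532 CPM over all cells, 2.37-fold (2.33 to 2.40), and from 1170 to 1650 CPM without the Epcam-gated cells, 1.41-fold (1.39 to 1.43). Within the leading classes 4 members were higher: Ccl11, against 7.54% of genes in stromal cells, Ccl17 and Ccl22, against 16.1% in dendritic cells, and Ccl20, against 32.2% in epithelial cells. In the same classes 2 were lower: Ccl5, against 5.33% of genes in dendritic cells, and Ccl12, against 6.29% in macrophages.

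**Figure D2:**
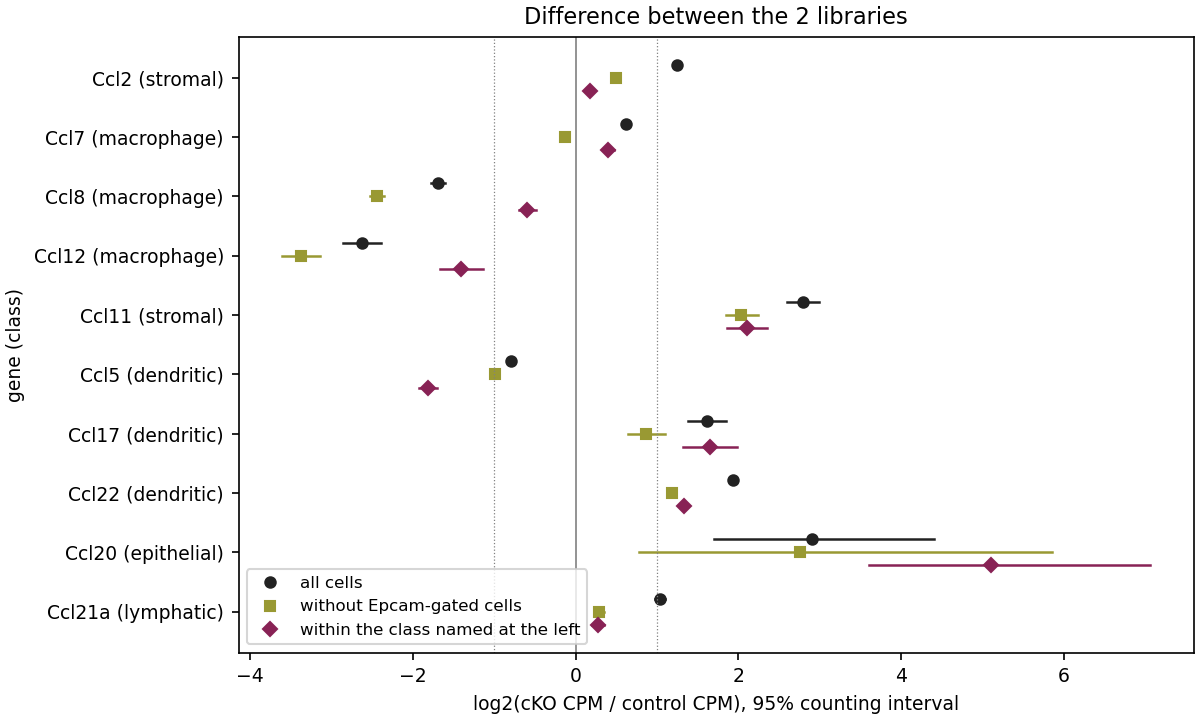
Log2 ratio of cKO to control CPM on the x axis for each chemokine, over all cells (circles), without Epcam-gated cells (squares) and within the class named at the left (diamonds), with 95% counting intervals and dotted lines at 2-fold. Ccl11 and Ccl22 stay to the right of the 2-fold line and Ccl12 to the left of it in all 3, while Ccl2, Ccl21a and Ccl7 lie near 0 within their class.

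Ccl2, the main monocyte attractant, was mostly stromal by total: stromal cells held 71.7% of its UMIs in control and 77.0% in cKO. In stromal cells 17486 UMIs in control and 62464 in cKO came to 2122 (2090 to 2153) and 2390 (2372 to 2409) CPM, a ratio of 1.13 (1.11 to 1.15). As a mean of the cells' own CPM the stromal log2 ratio was 0.60 in place of 0.17, and with cells thinned to 1000 UMIs 0.56 (0.46 to 0.66), short of 2-fold in each. In macrophages it was at 1542 CPM in the control library and 2758 CPM in the cKO library, a ratio of 1.79 (1.70 to 1.88). A single cKO macrophage held 20.1% of that library's macrophage Ccl2. The transcript was concentrated in part of the stroma in both libraries: the tenth of stromal cells with most UMIs held 74.2% of Ccl2 in control and 71.6% in cKO. With each cell thinned to 1000 UMIs, 32.1% (28.5 to 36.0) of control and 34.3% (31.9 to 36.8) of cKO stromal cells had a Ccl2 UMI, where unthinned shares were 48.3% and 57.0%. Epithelial cells, thinned alike, had 0.735% and 5.19%, the second in a gate that held stromal transcripts.

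Outside stroma and macrophages, single cells weighed on the Ccl2 levels of lymphoid and lymphatic cells. Lymphoid cells went from 4 to 453 Ccl2 UMIs, but 94.5% of the 453 lay in 1 cKO cell, and their Ccl7 went from 1 to 179 UMIs with 95.5% of the 179 in 1 cell. Lymphatic cells were at 1711 CPM in control, in 4 of 18 cells, and at 1614 CPM in cKO, in 29 of 50 cells, and without the top cell of each library at 979 and 1487 CPM, the other way round. Cells with no gate gene were at 138 CPM in the control library and 448 CPM in the cKO library. Among these, cells that carried Cpa3, a mast cell protease gene, without any class gate (56 and 41 cells) had 615 CPM of Ccl2 in control and 1320 CPM in cKO.

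Ccl7 (MCP-3) shared cells with Ccl2. In macrophages it had 4083 UMIs in control and 2660 in cKO, or 2064 (2001 to 2128) and 2726 (2624 to 2832) CPM, a ratio of 1.32 (1.26 to 1.39). In stromal cells it was at 879 CPM in the control library and 779 CPM in the cKO library, a ratio of 0.89 (0.86 to 0.91). Neither class reached 2-fold, and the 2 classes moved in opposite directions. Stromal cells still held most Ccl7 UMIs, 53.1% in control and 69.4% in cKO. Over all cells it was at 362 CPM in the control library and 555 CPM in the cKO library, a ratio of 1.53, and without the Epcam-gated cells 0.91. The Cpa3-bearing cells had 2292 CPM of Ccl7 in control and 3026 CPM in cKO, a level of the same order as in macrophages.

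Stromal cells with Ccl2 had Ccl7 in 70.7% of control and 67.3% of cKO cells, against 14.1% and 17.4% of stromal cells without Ccl2. In macrophages the shares were 86.6% and 83.8% with Ccl2 against 31.2% and 26.1% without. Cells with Ccl2 were deeper (median 15682 against 8511 UMIs in control stroma, 17573 against 13257 in cKO stroma), and the part of depth in these shares was not tested. As CPM, Ccl7 in Ccl2-bearing stromal cells was 1430 in control and 1167 in cKO, beside 47.5 and 55.8 in the others.

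Ccl8 (MCP-2), a chemokine of tissue macrophages, was lower in cKO. In macrophages it had 3028 UMIs in control and 988 in cKO, or 1531 (1477 to 1586) and 1013 (950.5 to 1078) CPM, a ratio of 0.66 (0.62 to 0.71), short of 2-fold. Over all cells it was at 91.2 CPM in the control library and 28.2 CPM in the cKO library, a ratio of 0.31 (0.29 to 0.33), while macrophages made up 5.25% of control and 1.84% of cKO cell UMIs. In a value over all cells, fewer macrophages and less Ccl8 RNA in each cannot be told apart. Thinned to 1000 UMIs, 47.7% (41.2 to 54.2) of control and 37.5% (28.5 to 47.1) of cKO macrophages had a Ccl8 UMI, with intervals that overlap (70.5% and 56.1% unthinned). Lymphoid cells had none after thinning, which allows up to 2.16% of 139 control and 0.719% of 417 cKO cells. Mixed cells held 4.66% of control and 25.4% of cKO Ccl8 UMIs, most of the latter in cells with stromal and macrophage gates. Stromal Ccl8 was at 21.7 CPM in the control library and 3.75 CPM in the cKO library. Epithelial markers limit cell-free RNA to 0.907% of control and 2.20% of cKO stromal UMIs, which at the Ccl8 level of the cell-free barcodes would bring 1.21 and 0.945 CPM.

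Ccl12 (MCP-5) was lower in macrophages, too. It had 756 UMIs in control and 141 in cKO, or 382 (355 to 410) and 145 (122 to 170) CPM, a ratio of 0.38 (0.31 to 0.45). Few cells carried the level: 57 of 241 control macrophages had a UMI and 1 held 22.8% of the total, and 29 of 114 cKO macrophages had a UMI and 1 held 35.5%. Thinned, 15.2% (10.9 to 20.4) of control and 11.6% (6.33 to 19.0) of cKO macrophages had Ccl12, with intervals that overlap, and unthinned 23.7% and 25.4%. Without the cell with most UMIs in each library the log2 ratio was -1.63 in place of -1.40. Among macrophages with Ccl7, 29.5% in control and 39.1% in cKO had Ccl12, against 10.7% and 4.44% of those without. Those with Ccl7 were deeper (median 8742 against 6450 UMIs in control, 8447 against 7191 in cKO), and the part of depth was not tested. With Ccl8 the Ccl12 shares were 23.5% in control and 37.5% in cKO, against 23.9% and 10.0% without Ccl8.

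The 3 macrophage ligands therefore did not move together: on the log2 scale the macrophage ratio was 0.40 for Ccl7, -0.60 for Ccl8 and -1.40 for Ccl12. Of 20 listed inducers of chemokines and their signalling genes, 14 had at least 10 UMIs in macrophages, where 6 were at least 2-fold higher in cKO, against 13.4% of genes, and 0 lower, against 6.29%. Among these Il1b, an inflammatory cytokine gene, was at 890 CPM in control and 2471 CPM in cKO, and Tnf at 227 and 617 CPM. Transcripts known to rise during dissociation were counted in the same way. Over all cells 0 of 20 such stress genes were at least 2-fold higher, against 14.1% of genes, and 3 were lower, near the 13.5% of genes, with sums of 10886 CPM in control and 9079 CPM in cKO. In epithelial cells 1 was higher, against 32.2%, and 3 were lower, against 10.7% (12763 and 11088 CPM). In macrophages 5 were higher, against 13.4%, and 1 lower, against 6.29%, and their sum was 10625 CPM in control and 15968 CPM in cKO. In lymphoid cells 8 were higher, against 12.2% of genes (sums of 2642 and 4105 CPM), and in lymphatic cells 6 were higher, against 12.7% (12094 and 18354 CPM). In stromal cells 0 of 20 were higher, against 7.54%, or lower, against 8.41% (7721 and 8241 CPM), and in dendritic cells 4 were higher, against 16.1%, and 1 lower, against 5.33% (6745 and 7665 CPM). The tissue had been digested for 5 hours at 37 °C, per the labels' protocol, and the part of dissociation in the chemokine levels was not tested.

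Ccl11, the eosinophil attractant, was higher in stroma. Stromal cells held 147 control and 1999 cKO UMIs, or 17.8 (15.1 to 20.96) and 76.5 (73.2 to 79.9) CPM, a ratio of 4.29 (3.63 to 5.11). The level came from few cells: 53 of 630 control stromal cells and 272 of 1494 cKO stromal cells had a UMI, and the highest cell held 15.0% and 12.0% of the UMIs. Thinned to 1000 UMIs, the shares were 2.26% (1.24 to 3.77) and 4.25% (3.28 to 5.40), and unthinned 8.41% and 18.2% (median depth 11791 and 15733 UMIs). The thinned intervals overlap. No thinned dendritic cell had Ccl11, which allows up to 2.14% in control and 1.27% in cKO. Cells with no gate gene went the other way, from 14.8 CPM in the control library to 7.96 CPM in the cKO library, and 36.9% of the control UMIs lay in 1 cell. Stromal cells with Ccl7 had Ccl11 in 11.9% of control and 27.0% of cKO cells, against 5.96% and 10.8% without Ccl7. Its receptor Ccr3 had 71 UMIs in control and 38 in cKO over all cells.

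Ccl5 came from several classes, and its level was lower in cKO dendritic, lymphoid and epithelial cells. In dendritic cells it had 1699 UMIs in control and 1065 in cKO, or 1280 (1220 to 1343) and 364 (343 to 387) CPM, a ratio of 0.28 (0.26 to 0.31). Lymphoid cells were at 687 CPM in the control library and 243 CPM in the cKO library, a ratio of 0.35 (0.31 to 0.40), a decrease past 2-fold, against 4.39% of genes there. Macrophages were at 337 and 443 CPM, where a single cKO cell carried 44.9% of the UMIs. Without the top cell of each library they were at 268 and 249 CPM. Cells with no gate gene were at 307 CPM in the control library and 327 CPM in the cKO library, and held 16.6% of all control and 48.8% of all cKO Ccl5. Most of those Ccl5-bearing cells carried lymphoid transcripts: of cells with neither class nor secondary gate, 67.2% of 128 in control and 98.5% of 518 in cKO had a lymphoid marker, and 32.8% and 49.2% had Nkg7, a granule gene of cytotoxic lymphocytes. Without Ccl5 the lymphoid marker shares were 9.32% and 33.9%. Over all cells Ccl5 was at 216 CPM in the control library and 124 CPM in the cKO library, a ratio of 0.57 (0.56 to 0.59).

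Epithelial Ccl5 differed by what else the gated cells carried. Epcam-gated cells held 2879 UMIs in control, 35.4% of the library's Ccl5, and 286 in cKO, or 169 and 74.5 CPM, a ratio of 0.44 against 10.7% of genes at least 2-fold lower there. Split by Ptprc, Epcam-gated cells without it had 2726 UMIs in control and 2 in cKO, or 163 (157 to 170) and 0.670 (0.0812 to 2.42) CPM. Their ratio was 0.00410 (0.000497 to 0.0148), against 11.4% of genes at least 2-fold lower in these cells. Epcam-gated cells with Ptprc were at 514 CPM in the control library and 333 CPM in the cKO library. Ccl5 of the cKO epithelial gate thus lay almost wholly in Ptprc-bearing cells, which was not so in control. Of the 144 control epithelial cells with Ccl5, 95.8% carried a keratin UMI (Krt8, Krt18 or Krt19) and 6.94% carried Ptprc. Of the 30 such cKO cells, 10.0% carried a keratin UMI, 93.3% Ptprc and 96.7% a lymphoid marker.

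Control epithelial cells with Ccl5 also carried interferon-related transcripts. Ifit3, an interferon-induced gene, was in 72.2% of them and in 18.6% of epithelial cells without Ccl5, and Ifnb1, which encodes interferon beta, in 29.9% and 4.28%. Their median depths were 9123 and 5600 UMIs. Ccl5 was at 378 CPM in Ifit3-bearing control epithelial cells and 28.3 CPM in the others. In cKO, 0 of the 30 Ccl5-bearing cells had an Ifit3 UMI, which allows a share with a UMI of up to 10.0%. As 93.3% of these 30 carried Ptprc and 10.0% a keratin UMI, they are not a counterpart of the control cells. Ifnb1 had 748 UMIs in control and 0 in cKO over the epithelial gate, at least 56.3-fold lower.

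**Figure D3:**
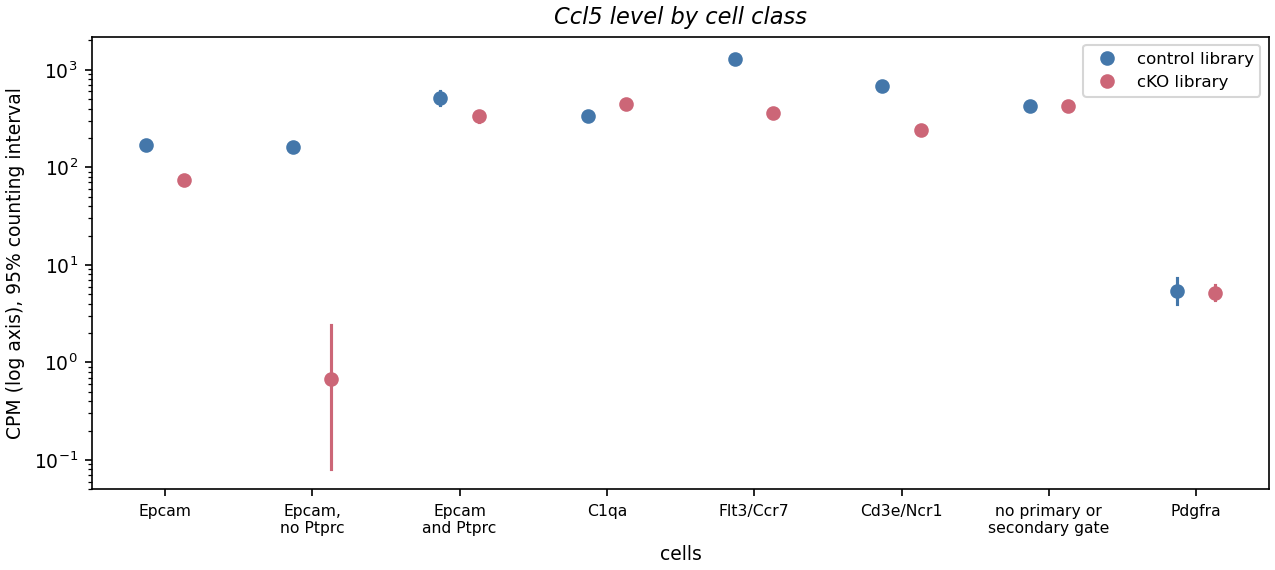
Ccl5 level (CPM, log axis) with 95% counting intervals in 8 sets of cells, control library in blue and cKO library in red. The libraries are far apart in Epcam-gated cells without Ptprc (163 against 0.670 CPM) and close together in cells with no gate gene.

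Ccl22, a product of mature dendritic cells, was higher in cKO. Dendritic cells held 3230 control and 17916 cKO UMIs, or 2434 (2351 to 2520) and 6130 (6041 to 6221) CPM, a ratio of 2.52 (2.43 to 2.62). Many cells carried it: 93 of 141 control and 172 of 239 cKO cells, with a median of 15 and 53.5 UMIs in cells that had any, and no more than 7.24% of the UMIs in 1 cell. Thinned to 1000 UMIs, 46.4% (38.0 to 55.0) and 56.4% (49.8 to 62.8) of dendritic cells had a UMI (66.0% and 72.0% unthinned), with overlapping intervals. Lymphoid cells, thinned alike, had 0% (which allows up to 2.16%) and 0.480%.

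Ccl17, the other Ccr4 ligand, lay in fewer of the same cells. Dendritic cells held 89 control and 614 cKO UMIs, or 67.1 (53.9 to 82.5) and 210 (194 to 227) CPM, a ratio of 3.13 (2.50 to 3.96). It was detected in 23 of 141 control and 62 of 239 cKO dendritic cells, and in 0 macrophage, lymphoid or lymphatic cells of either library. A count of 0 allows up to 1.52 and 3.07 CPM in control and cKO macrophages. Thinned shares were 5.71% (2.50 to 10.9) and 10.6% (6.97 to 15.2), against 16.3% and 25.9% unthinned. Of the dendritic cells with Ccl17, 95.7% in control and 100% in cKO had Ccl22, against 60.2% and 62.1% of those without. Mixed cells bear on this member: 3 of them held 52.1% of control Ccl17, 57 UMIs in 1 cell that had both epithelial and dendritic gates and 41 in the dendritic and lymphoid combination. With gates not exclusive, the dendritic log2 ratio of Ccl17 was 1.08 in place of 1.64. With cells thinned to 1000 UMIs it was 0.86 (0.05 to 1.80), short of 2-fold.

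The makeup of the dendritic gate differed between libraries. Flt3, a receptor of conventional dendritic cells and their precursors, was in 43 of 141 control and 138 of 239 cKO cells, and 98 and 101 cells had Ccr7 without Flt3. Most Flt3-bearing cells had Ccr7 too, 42 of 43 in control and 131 of 138 in cKO. Flt3-bearing cells were also deeper (medians of 11612 and 13916 UMIs, against 7756 and 8704 without Flt3), and the part of depth in the split was not tested. Lymphoid markers moved with the gate: the sum of 7 was 102 CPM in control and 505 CPM in cKO over the whole gate, 3.81 and 377 CPM in Flt3-bearing cells, and 167 and 771 CPM in Ccr7-bearing cells without Flt3. Their part in the dendritic levels of Ccl22, Ccl17 and Ccl5 was not tested. Within Flt3-bearing cells Ccl22 was at 3419 CPM in the control library and 7578 CPM in the cKO library, a ratio of 2.22 (2.11 to 2.33), against 21.7% of genes at least 2-fold higher there. Within Ccr7-bearing cells without Flt3 it was at 1789 and 3104 CPM, a ratio of 1.73 (1.63 to 1.85). Both strata were higher in cKO, each by less than the whole gate. Ccl17 was at 83.8 and 248 CPM with Flt3, a ratio of 2.96 (2.17 to 4.13), and at 56.1 and 130 CPM without, 2.32 (1.64 to 3.34), against 16.0% of genes. Ccl5 was lower in both, at 1364 and 328 CPM with Flt3 and 1226 and 441 CPM without, ratios of 0.24 and 0.36 where 6.06% of genes were at least 2-fold lower in either set. In cKO, dendritic cells with and without Ccl5 were alike in Ccl22 (5715 and 6492 CPM), whereas in control they were at 3395 and 1547 CPM.

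**Figure D4:**
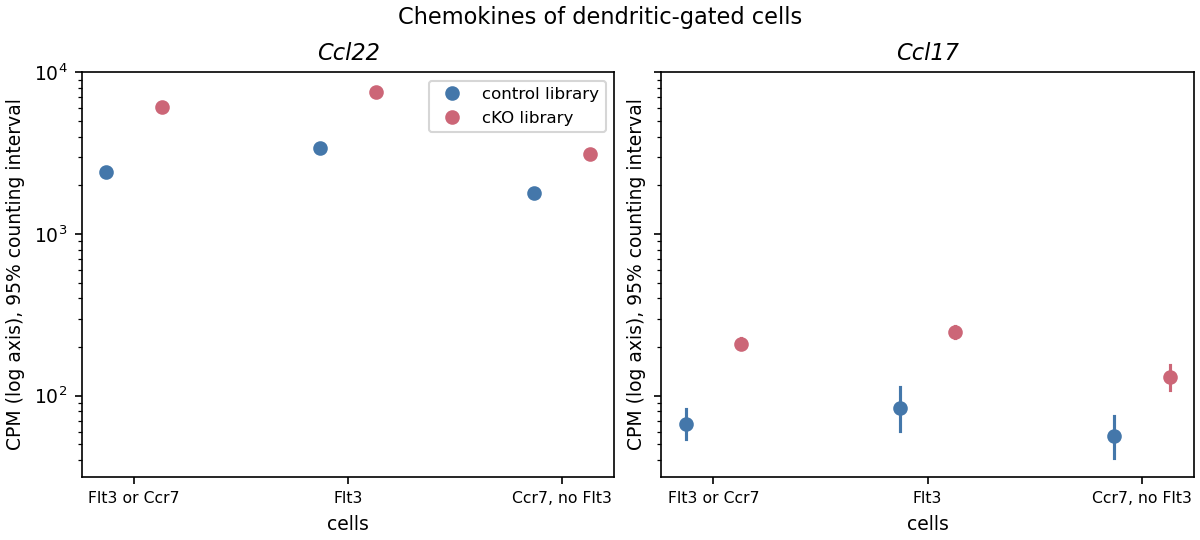
Ccl22 (left) and Ccl17 (right) level in CPM on a log axis, with 95% counting intervals, in all dendritic-gated cells, those with Flt3 and those with Ccr7 but no Flt3. The cKO library (red) lies above the control library (blue) in each set, and Flt3-bearing cells lie above those without Flt3.

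Ccl20, an epithelial and lymphocyte product that attracts Ccr6-bearing cells, was near the limit of detection. It had 6 UMIs in 4 control cells and 63 UMIs in 7 cKO cells, or 0.159 (0.0584 to 0.347) and 1.19 (0.915 to 1.52) CPM over all cells. In the epithelial gate 4 UMIs in 2 control cells and 31 UMIs in 3 cKO cells gave 0.235 and 8.08 CPM, a ratio of 34.3 (12.1 to 134). The levels rest on few cells: 1 cKO cell held 24 of the 31 UMIs among 279351 UMIs in all, with 1714 Krt8 UMIs and 1 Ptprc UMI. Without the top cell of each library the epithelial levels were 0.0590 and 1.97 CPM, a log2 ratio of 4.57 (2.10 to 10.6) in place of 4.95, on fewer UMIs than the minimum of 10. It was 3.22 (1.32 to 5.51) in Epcam-gated cells without Ptprc, which leaves out that cell, 3.34 as a mean of the cells' own CPM and 2.82, with no lower limit, in thinned cells. A mixed cell with epithelial and stromal gates held 25 more and a second deep epithelial cell 6. The cell-free barcodes of both libraries had 0, which allows up to 1.16 CPM in control and 1.31 CPM in cKO. Ccr6, its receptor, had 4 and 7 UMIs.

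Ccl21a marked lymphatic endothelium in both libraries. All 18 control lymphatic cells and 33 of 50 cKO lymphatic cells had it, with 1879 and 7206 UMIs, or 5375 (5135 to 5624) and 6519 (6369 to 6671) CPM, a ratio of 1.21 (1.15 to 1.28). Without the top cell of each library, which held 24.7% and 20.1% of these UMIs, the levels were closer, 5605 and 5890 CPM. The 17 cKO cells without Ccl21a looked different: 5.88% carried Flt4 and 5.88% Mmrn1, both lymphatic endothelial genes, and 41.2% carried Col1a1, a fibroblast collagen gene. Of the 33 with it, 78.8% carried Flt4, 97.0% Mmrn1 and 9.09% Col1a1. Over all cells Ccl21a went from 78.8 to 162 CPM, 2.05-fold (1.97 to 2.14), and without Epcam-gated cells the ratio was 1.22 (1.17 to 1.27). On the log2 scale the value over all cells was 1.04, but 0.10 with cells thinned to 1000 UMIs, 0.16 as a mean of the cells' own CPM and 0.93 with at most 10% mitochondrial UMIs, so the 2-fold difference was lost in each. A mixed cell with stromal and lymphatic gates carried much of the rest in control, where mixed cells held 36.0% of the UMIs and 1 of them 83.2% of those. The second Ccl21a row had 0 UMIs in control and 1 in cKO, and the rows of the related copies Ccl21b and Ccl21c had 0. Reads shared between copies, if any, are therefore uncounted or assigned to the row used here.

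Receptors of these ligands lay mostly on leukocytes. Of 10 CC receptor genes (chosen by name), 3 were at least 2-fold higher over all cells, against 14.1% of genes, and 1 lower, against 13.5%, with a median log2 ratio of 0.68 beside 0.25 over all genes. Ccr9, at a ratio of 2.00, is among the 3 and rests on few cells: 1 cell held 53.8% of its UMIs in control and 47.3% in cKO. Ccr2, the receptor of Ccl2 and Ccl7, was at 1211 CPM in the control library and 1367 CPM in the cKO library lymphoid cells, a ratio of 1.13, and over all cells at 51.3 and 151 CPM, a ratio of 2.94 (2.80 to 3.09). Outside the lymphoid gate the difference was larger. Cells with no gate gene, which held 37.5% of control and 43.2% of cKO Ccr2 UMIs, were at 165 and 351 CPM, a ratio of 2.13 (1.97 to 2.31). Macrophages had a ratio of 2.24 and dendritic cells 2.69. The 7 lymphoid markers summed to 533 CPM in control and 1952 CPM in cKO in cells with no gate gene. In dendritic cells the sums were 102 and 505 CPM, and in macrophages 34.9 and 34.8 CPM. The part of lymphoid cells in these Ccr2 ratios was not tested. Ccr1, a receptor of Ccl5, was at 148 and 73.8 CPM in macrophages. Ccr4, the receptor of Ccl17 and Ccl22, had 13 and 30 UMIs in all. Ccr7, the receptor of Ccl21a, is a gate gene and its dendritic level (3964 and 4008 CPM) describes the gate. Of 5 atypical receptors that bind chemokines without signalling in the usual way, Ackr3 was at 80.9 CPM in the control library and 245 CPM in the cKO library stromal cells, a ratio of 3.02, and Ackr2, a scavenger of inflammatory CC ligands, at 109 and 54.3 CPM in lymphatic cells.

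**Figure D5:**
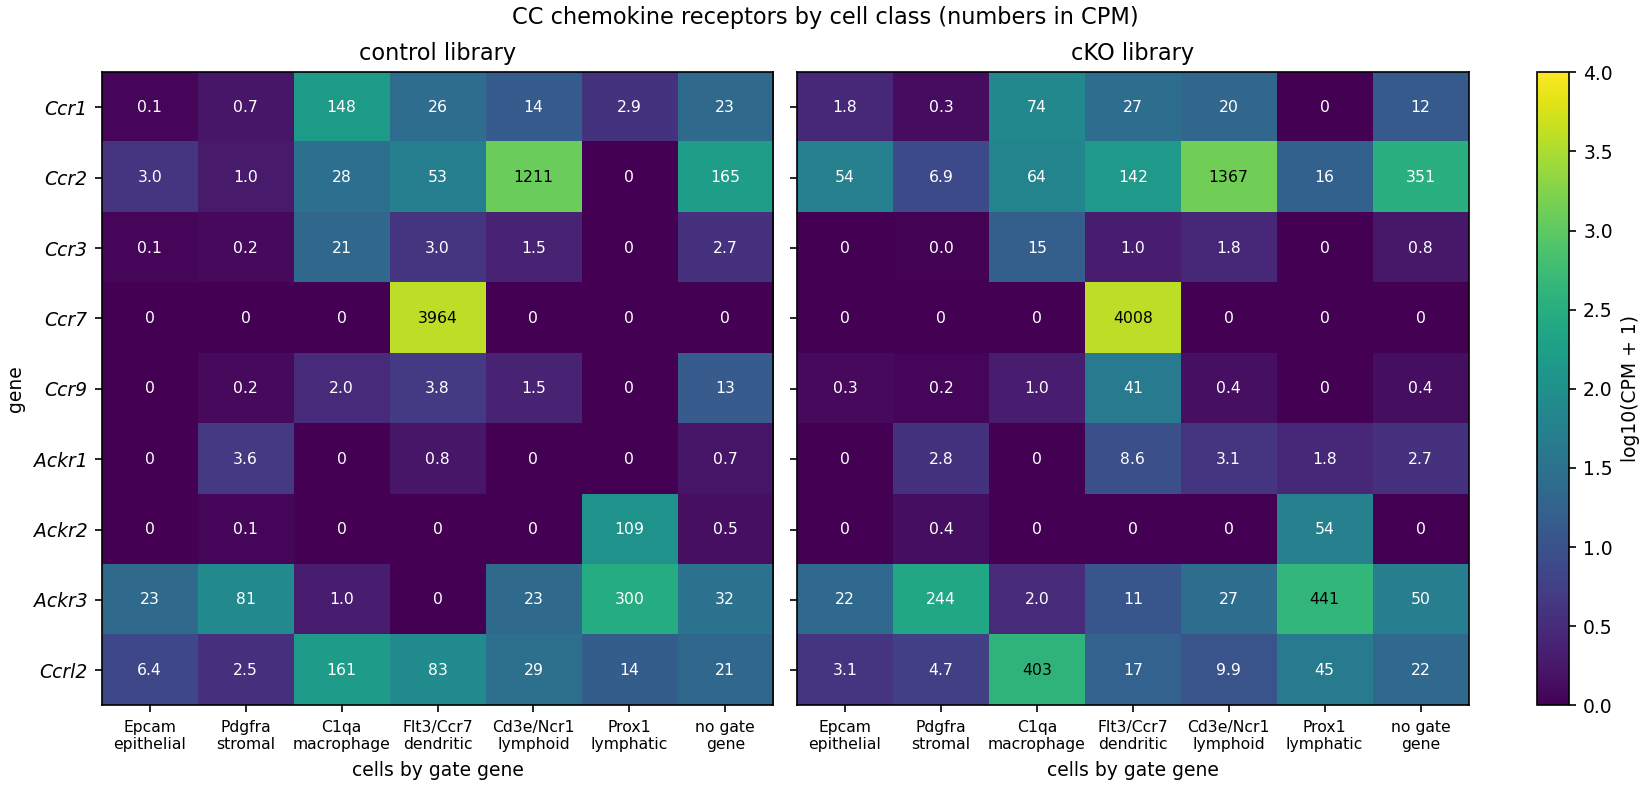
CC chemokine receptor level in CPM (printed numbers, colour as log10(CPM + 1)) by cell class for Ccr1, Ccr2, Ccr3, Ccr7, Ccr9, Ackr1, Ackr2, Ackr3 and Ccrl2, control library at left and cKO library at right. Ccr2 stands out in lymphoid cells, Ccr1 in macrophages, Ackr3 in stromal and lymphatic cells, and Ccr7 marks the dendritic gate that it defines. In cKO dendritic cells 88.4% of Ccr9 UMIs lay in 1 cell.

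Across 13 class-by-library sums, the gene most like each member in log2(CPM + 1) was, by Pearson correlation, Ccl7 for Ccl2 (0.97), C3ar1 for Ccl12 (0.98), Slamf8 for Ccl8 (0.96), Ggt7 for Ccl11 (0.96), Crybg1 for Ccl5 (0.95), the gate gene Flt3 for Ccl17 (1.00), Apol7c for Ccl22 (0.99) and Tbx1 for Ccl21a (0.99). Among 13468 genes compared, Vcam1 (0.95) and Cxcl5 (0.95) followed Ccl2 in likeness to Ccl7, and Ackr2 (0.99) and the gate gene Prox1 (0.99) followed Tbx1 for Ccl21a. These are descriptions over sums that share libraries and differ in depth, and several rest on a single class that is high. Flt3 and Prox1 define the classes, which fixes their pattern, and their likeness is not read as a result. Ccl20 was left out here because few cells set its pattern.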

How the data were processed

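The files hold raw UMI counts per gene and barcode, unfiltered, written by the authors with Cell Ranger 4 per the file headers, whereas the submitters' processing notes name Cell Ranger 6.1.1 and build mm10. The annotation and aligner settings are not given in the sources used here. Each matrix is 1 sample, grouped by its title. The members, gene lists and classes were chosen with earlier results of these data known.

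Cells had at least 500 genes and at most 20% mitochondrial UMIs, and were gated by 1 UMI. The label check used other markers (6 epithelial, 6 stromal, 6 macrophage, 7 dendritic without Ccl22, 7 lymphoid, 5 lymphatic). Cells with several gates were set aside, and doublets were otherwise kept. Counts were summed per class and library as CPM, with exact Poisson intervals for levels, exact conditional binomial intervals for ratios and Clopper-Pearson intervals for shares, all 95% and for counting error only. Log2 ratios carry 0.5 UMI. A count of 0 allows up to 3. Shares were also computed after thinning cells to 1000 UMIs. Cell-free RNA was read from barcodes with at most 100 UMIs (730412 and 812108). The members were named in full, and of the receptor and ligand lists those with at least 100 UMIs were given values, together with Ccr3, Ccr4 and Ccr6 as receptors of members. Some items of these lists are not reported here. For the most similar genes, members and candidates had at least 50 UMIs. Fold calls and intervals were tested on simulated data. The alternatives were other cell filters, gates and scalings (TMM in edgeR 4.0.16), thinning, a mean over cells, cell-free subtraction, removal of cells with a Scrublet score above 0.25 (scanpy 1.11.5) and removal of the top cell. Chosen after seeing the data were the removal of Epcam-gated cells, the gates by Flt3 or Ptprc and a minimum of 10 cells per class. Other tools were Python 3.11.15, numpy 2.4.6, scipy 1.17.1, pandas 2.3.3 and Biopython 1.88.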

Additional observations from a re-analysis of the deposited data

Results flagged for a closer look

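Cell-free barcodes, which no comparison used as cells, held more of some macrophage chemokines than the cells did. Ccl8 was at 133.8 CPM in control cell-free barcodes and 91.2 CPM in control cells, and at 42.9 CPM in cKO cell-free barcodes and 28.2 CPM in cKO cells. Ccl12 was at 5.25 CPM in cKO cell-free barcodes (12 UMIs) and 3.59 CPM in cKO cells, while in control it was lower in the cell-free barcodes (19.4 CPM) than in the cells (22.2 CPM). Of the other 8 members, 7 were lower in cell-free barcodes than in cells in both libraries. Ccl20 had 0 UMIs there, which allows up to 1.16 and 1.31 CPM, above its 0.159 and 1.19 CPM in cells. At the cell-free share that markers of other classes allow, cell-free RNA would bring 1.21 and 0.945 CPM of Ccl8 to stromal cells, where 21.7 and 3.75 CPM were measured. In epithelial cells it would bring 7.78 and 4.61 CPM, more than the 0.942 and 0 CPM measured.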

How the results depend on the processing

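No paired analysis was possible because each group is 1 library. Over all cells, the count of members at least 2-fold higher in cKO was 6. Without Epcam-gated cells, a setting chosen after seeing the data that kept mixed cells, it fell to 3. It was 4 with cells thinned to 1000 UMIs, without Ccl20 and Ccl21a. It was 5, without Ccl21a, with TMM, with at most 10% mitochondrial UMIs and as a mean over cells. Within the leading class it was 4, and 2 (Ccl11 and Ccl22) with cells thinned to 1000 UMIs, where Ccl17 had a log2 ratio of 0.86, and 3 without the top cell, where Ccl20 fell under the minimum of 10 UMIs at a log2 ratio of 4.57. The counts of lower members stayed at 2 in every setting within the leading class, and were 2 or 3 over all cells (3 with TMM, which added Ccl5 at -1.04 and put Ccl21a at 0.80). The count with the same leading class was 6, and 8 without the top cell, which gave Ccl2 and Ccl5 the same class in both libraries. It was 7 with thinned cells or a mean over cells (adding Ccl2), and with gates not exclusive or classes of at least 10 cells (adding Ccl21a).

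Of 90 single-member values over all cells under 9 alternatives, 47 moved by less than the counting interval, 43 moved by more and 0 changed sign among called members. Of 108 within the leading class under 12 alternatives, 77 and 31 did so and 0 changed sign. Without Epcam-gated cells the ratio of Ccl7 over all cells was -0.13 in place of 0.62 on the log2 scale, of Ccl8 -2.44 in place of -1.69 and of Ccl12 -3.37 in place of -2.62. As a mean of the cells' own CPM Ccl11 was 1.48 in place of 2.79 and Ccl20 1.43 in place of 2.80. TMM moved the median of all genes by -0.24 over all cells, by -0.49 in epithelial cells and by -0.26 in dendritic cells, and Ccl22 kept 1.07 there. Doublet scores removed 42 control cells (1.15%) and 60 cKO cells (1.21%). Cell-free subtraction worked per class and gave no value over all cells. Replication, at 1 library per group, and few cells for Ccl20, Ccl12 and Ccl17 limit what these values carry.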

Other observations

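Among the 13 CC ligand genes outside the set (Ccl3, Ccl4 and others, listed by name), 9 had at least 10 UMIs, of which 0 were at least 2-fold higher in cKO over all cells, against 14.1% of genes, and 3 lower, against 13.5%. Their median log2 ratio was -0.91, beside 0.25 over all genes. Within macrophages Ccl3, a ligand of Ccr1, was at 1112 CPM in the control library and 2246 CPM in the cKO library, a ratio of 2.02, and its neighbour Ccl4 was at 3609 and 4005 CPM. Ccl9 was at 1624 and 1892 CPM and Ccl6 at 448 and 428 CPM. Ccl24, a second eosinophil attractant, went the other way from stromal Ccl11: macrophages held 666 control and 48 cKO UMIs, or 337 and 49.2 CPM, with 30.3% and 56.2% of the UMIs in 1 cell. In cKO a further 185 Ccl24 UMIs lay in mixed cells. Ccl28, a mucosal epithelial ligand, held 291 control and 5 cKO UMIs over the epithelial gate, or 17.1 and 1.30 CPM.

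Listed inducers of chemokines went in both directions in epithelial, stromal and dendritic cells. Of those with at least 10 UMIs, 3 of 16 in epithelial cells were at least 2-fold higher (32.2% of genes) and 6 lower (10.7%), 2 of 14 in stromal cells were higher (7.54%) and 1 lower (8.41%), and 3 of 14 in dendritic cells were higher (16.1%) and 3 lower (5.33%). Il6 in stromal cells was at 160 CPM in the control library and 461 CPM in the cKO library. Il1b was higher in cKO macrophages (890 and 2471 CPM) and lower in cKO dendritic cells (2765 and 1146 CPM). Il17a had 3 control and 116 cKO UMIs in lymphoid cells, which held 659743 UMIs in 141 control cells and 2225836 UMIs in 420 cKO cells. Ccrl2 was at 161 and 403 CPM in macrophages and at 82.9 and 17.1 CPM in dendritic cells.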
